A study of Homo sapiens with 2 samples.

Results

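The major histocompatibility complex (MHC) is a gene-dense stretch of the short arm of chromosome 6. It is taken here as 29.6 to 33.4 Mb in hg19, a length of 3.8 Mb. An interaction belonged to it when both of its anchors, the genomic intervals that the files pair, lay inside. Of the 150390 interactions of the senescent library 108 met this rule, and of the 12221 interactions of the control library 0 did. The region was divided by position into class I (29.6 to 31.48 Mb), class III (31.48 to 32.36 Mb) and class II (32.36 to 33.4 Mb).

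HiChIP joins the ends of DNA that were near each other in fixed nuclei and then pulls down the fragments bound by a chosen protein. The protein here was METTL3, the enzyme subunit that methylates adenosines in RNA. Both libraries were made from IMR90 cells, a human lung fibroblast line of embryonic origin, with the genotype given as WT and cultured at low oxygen. The control library came from control cells, and the senescent library from cells made senescent by induced expression of estrogen receptor fused to H-RASG12V (ER: RAS); whether the control cells carry the construct is not stated. With 1 library in each group, no comparison has replicates behind it and p-values were not calculated. Contacts are counted in paired-end tags (PETs), each a sequenced ligation product that joins a pair of anchors. The control table lists 14373 PETs and the senescent table lists 184165. Tables of DNA contacts hold no expression values, so the labelled cell type could not be checked against markers.

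The MHC carries the genes by which cells show peptides to T cells. Class I molecules such as HLA-B and HLA-C are made by nearly all nucleated cells and present peptides cut in the cytosol, while class II molecules such as HLA-DR are mainly made by professional antigen-presenting cells. The class II region also holds genes that load class I molecules: TAP1 and TAP2 encode the peptide transporter, PSMB8 and PSMB9 encode subunits of the immunoproteasome, and TAPBP encodes tapasin. Class III holds complement, tumour necrosis factor and heat shock genes.

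The 53 genes listed here for the region were all found on chromosome 6 in the RefSeq table of GRCh38.p14, which gives their order. From the lower border upwards, the listed genes run from HLA-F, HLA-G and HLA-E, which are class I antigen genes, to GNL1, ABCF1, PPP1R10, TUBB, FLOT1, IER3 and DDR1. IER3 is a stress-induced immediate early gene, TUBB encodes a beta tubulin and DDR1 a collagen receptor. TCF19 and POU5F1 follow, then HLA-C, HLA-B, MICA and MICB. The last pair encodes stress-induced ligands of an activating receptor of natural killer cells. The next stretch holds DDX39B, the cytokine genes LTA, TNF and LTB, then BAG6, the heat shock genes HSPA1L, HSPA1A and HSPA1B, EHMT2, the complement genes C2, CFB, C4A and C4B, then TNXB and NOTCH4. It is followed by the HLA-DR and HLA-DQ genes and HLA-DOB, by TAP2, PSMB8, TAP1 and PSMB9, and by HLA-DMB, HLA-DMA, BRD2, HLA-DOA, HLA-DPA1 and HLA-DPB1. RXRB, RING1, TAPBP and DAXX are the last. The contact files are in hg19 and name no gene, and no hg19 annotation was used here. Anchors are therefore given by their hg19 coordinates, and none is assigned to a gene.

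The control table used here listed no contact anywhere in the MHC. Whether that table is complete around the region could not be told from the file, and the counts of 0, the stretch without anchors and the bound below all rest on it. No control interaction had even 1 anchor inside it, and none bridged it. The nearest control anchors ended at 27816398 below the region and began at 34317533 above it, which leaves 6.5 Mb of chromosome 6 without a control anchor. At the senescent share of PETs, 11.1 control PETs would have fallen in the region. Against a floor of 3 control counts, the senescent share was at least 3.69-fold higher. Over the rest of chromosome 6 the direction was the opposite, with 1292 control PETs and 8892 senescent PETs, a ratio of shares of 0.537 (0.507 to 0.57). A contact is listed only between called anchors, so that a lack of anchors and a lack of PETs in control cells cannot be told apart.

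Absence from the control table was common elsewhere and has to be read against that. Of 9932 autosomal windows of 200 kb with a PET in either library, 61.0% had senescent PETs and no control PETs. In the MHC these were all 15 of the 15 windows that held a PET, out of 19 windows. The share fell with the number of senescent PETs: no control PET was found in 75.7% of windows with 1 to 4 senescent PETs, in 62.2% of those with 5 to 9 and in 54.3% of those with 10 or more. The MHC had 8, 3 and 4 windows in these classes. With windows of 100 kb the autosomal share was 70.5%, and in the MHC these were all 27 of the 27 windows that held a PET. With windows of 500 kb it was 45.3%, and in the MHC all 7 of 7. Larger stretches were less often empty: among 404 autosomal tiles of 3.8 Mb with at least as many senescent PETs as the MHC, 6.19% held no control PET. Among 313 tiles with fewer senescent PETs the share was 17.3%. Among the 124 tiles within 25% of the MHC's senescent PETs, 4.84% held none, and their control PETs ran from 0 to 140 with a median of 15. The fullest tile without control PETs held 1593 senescent PETs, so other stretches with more senescent PETs also lacked control PETs.

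In the senescent library the MHC was thinly joined for its surroundings. It held 142 PETs, against 637 in the 3.8 Mb below it and 702 in the 3.8 Mb above it. The flanks thus had 4.49 times (3.73 to 5.42) and 4.94 times (4.12 to 5.96) as many. Of 719 autosomal tiles of the same length, 403 held more than the MHC, and the median tile held 168. Here and above, tiles count contacts by midpoint alone, while the MHC counts only those with both anchors inside. The control library had 55 PETs below and 15 above. The ratio of shares, senescent over control, was 0.904 (0.686 to 1.21) in the lower flank, and 3.65 (2.2 to 6.56) in the upper flank.

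**Figure D1:**
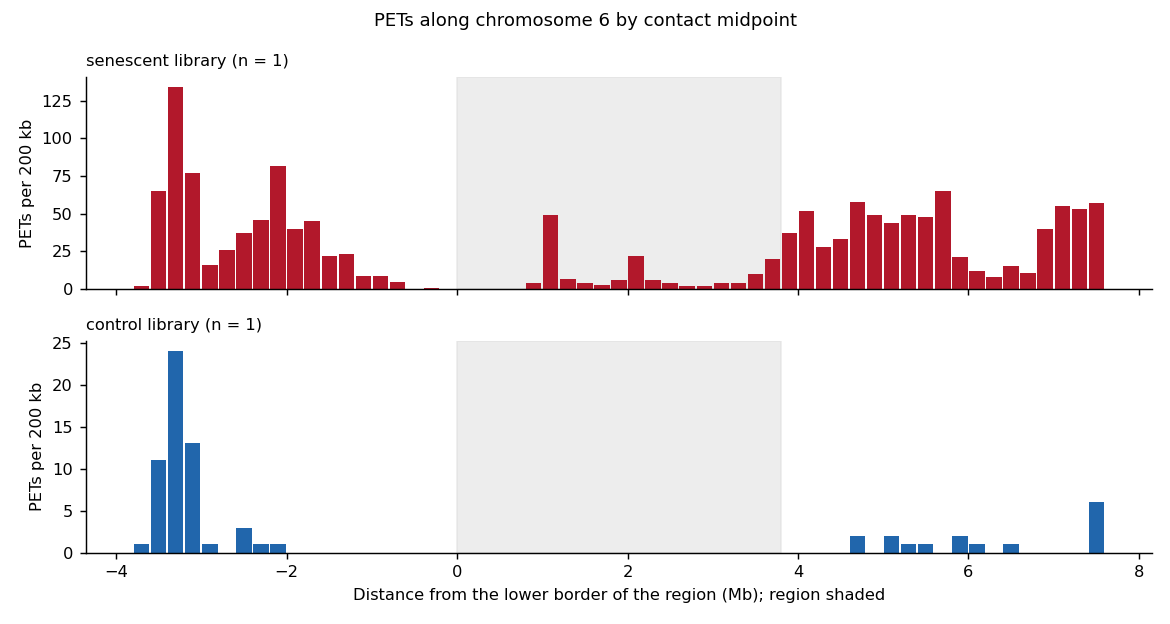
PETs per 200 kb of chromosome 6 by contact midpoint, in the senescent library (top) and the control library (bottom, another vertical scale), with distance from the lower border of the region on the horizontal axis and the region shaded; contacts with 1 anchor outside are included. The senescent bars inside the shading peak at 49 PETs, and the control bars are at 0 throughout it.

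The contacts were unevenly placed inside the region. Windows of 200 kb were filled by contact midpoint, so they do not show where the anchors lie. The 4 lowest windows, from 29.6 to 30.4 Mb, held no contact midpoint. The anchors at 30293375 to 30295720 and 30312125 to 30314276 lie there, but the midpoints of their contacts do not. The window at 30.6 to 30.8 Mb held 49 PETs, the most of the 19. The next were 22 PETs at 31.6 to 31.8 Mb, 17 in the topmost window and 10 in the window beneath it. The other 11 windows held 1 to 7 PETs each. Those from 32.4 to 32.8 Mb hold no anchor, so their PETs come from contacts that pass over them. The median was 4 PETs per window over all 19, the empty ones included and only contacts with both anchors inside counted. It was 10 over the autosomal windows that held senescent PETs, where contacts were counted by midpoint alone, so the 2 medians are not alike.

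By class, 45 interactions with 63 PETs lay within class I, 31 with 34 PETs within class III and 19 with 30 PETs within class II. Per Mb these were 23.9, 35.2 and 18.3 interactions. Class III thus took 32.6% of the 95 within-class interactions (23.4 to 43%) with 23.2% of the length. Class I took 47.4% (37 to 57.9%) with 49.5% of the length and class II 20% (12.5 to 29.5%) with 27.4%, and both intervals hold the share of length. By PETs the class III share was 26.8% (19.3 to 35.4%) and with the inner borders 100 kb higher 28.3% (19.4 to 38.6%), and these intervals hold the share of length too. Interactions share anchors, so all these intervals are too narrow. The class II share rested on its upper end: with the upper border 200 kb lower it was 8.43%.

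Interactions between classes numbered 13, with 15 PETs: 7 joined class I with III and 6 joined class III with II. None joined class I with class II. Those from class III to II spanned 642 to 1302 kb, and all but 1 of these had a single PET. Through its contacts, 74 of the 77 anchors formed 1 connected set from 30312125 to the upper border. The other 3 anchors, between 31164724 and 31373427, were joined in a chain by contacts of 5.27 and 204 kb with 1 PET each.

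**Figure D2:**
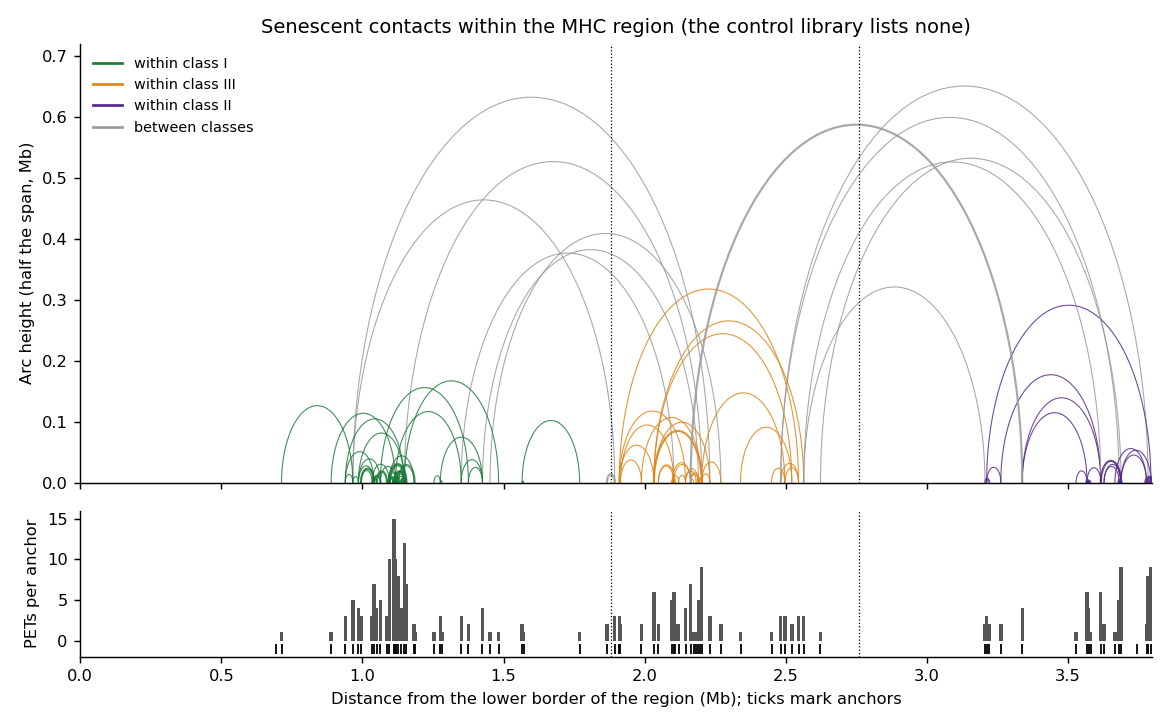
Top, each arc is 1 of the 108 senescent interactions, drawn between anchor midpoints along the region (horizontal axis, Mb from the lower border) with its height growing with its span and its thickness with its PETs; colours give the class and dotted lines the class borders. Below, bars give the PETs of each anchor, up to 15, and ticks mark the 79 anchors, which are missing from 580 kb that includes the start of class II.

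Anchors were missing from long stretches. The 79 anchors covered 6.26% of the region, with 18.1 per Mb in class I, 30.7 in class III and 17.3 in class II. The longest stretch without a senescent anchor was 1340 kb, from 28953529 below the region to 30293375, so that class I below that point held none. The next was 580 kb, from 32224673 in class III to 32805105 in class II. Others were 193 kb from 31172807 to 31366256, 187 kb from 32941151 to 33128323, 174 kb from 30314276 to 30487812 and 107 kb from 31941693 to 32048225. The 3 anchors that follow the 580 kb stretch were partly joined to each other: that at 32820503 to 32823119 contacted those at 32805105 to 32807648 (15.4 kb) and 32810970 to 32813651 (9.5 kb), with 1 PET each. How reads of the polymorphic HLA genes and of near-identical copies such as C4A and C4B were aligned is not stated in the sources used here.

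The densest stretch lay in class I. Between 30683800 and 30787677, a length of 104 kb or 2.73% of the region, 11 anchors were joined by 18 interactions of 55 possible pairs, with 33 PETs. This was 23.2% of the region's PETs (16.6 to 31.1%) and 52.4% of those within class I. Of the 18 interactions, 8 had at least 2 PETs. The stretch was chosen for its density, so these shares are a description.

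The anchor at 30709478 to 30713507 had the most PETs of any anchor when only partners inside the MHC are counted, as for the anchors below: 15 over 5 partners. It contacted its neighbour at 30715817 to 30717803, 5.32 kb away, with 4 PETs. It contacted sites 8.95 and 15.9 kb above it, and the site at 30692846 to 30696914 below it (16.6 kb), with 3 PETs each. A site 36.8 kb above it was reached with 2. All 5 of its contacts thus had at least 2 PETs. The site at 30692846 to 30696914 had 6 partners and 10 PETs and also reached 59 kb to 30752875 to 30754912 with 3 PETs. The anchor with the most partners inside the MHC was at 30745675 to 30750859, with 9 partners and 12 PETs. It was joined to the site at 30735755 to 30739259, 10.8 kb away, with 3 PETs. It also reached into class III, 1054 kb away, with 1. The neighbour at 30715817 to 30717803 had 6 partners and 10 PETs, and that at 30725951 to 30728865 also 6 partners, with 8 PETs.

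**Figure D3:**
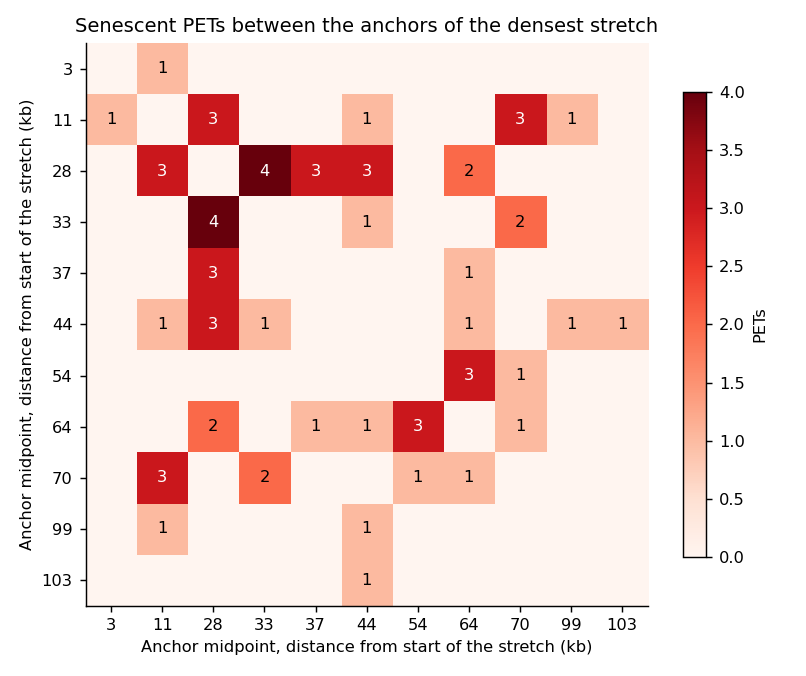
Senescent PETs between the 11 anchors of the densest stretch, each axis giving the anchor midpoints in kb from the start of the stretch and each number the PETs of that pair (blank cells are pairs not listed). The anchor with its midpoint at 27.7 kb (rounded on the axis) has 5 filled cells of 2 to 4 PETs.

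In class III the contacts with at least 2 PETs were 3 of 31 (9.68%, 2.04 to 25.8%), against 11 of 45 in class I (24.4%, 12.9 to 39.5%) and 4 of 19 in class II (21.1%, 6.05 to 45.6%), and the intervals overlap. The class III anchor with the most partners, at 31801260 to 31803778, had 7 partners and 9 PETs. It was joined with 2 PETs to the site at 31630789 to 31634971, 170 kb below, which had 5 partners and 6 PETs. The anchor at 31760042 to 31766255 had 6 partners and 7 PETs. The median span in class III was 59.5 kb (37.8 to 170 kb), in class I 37.1 kb (22.4 to 59 kb) and in class II 53.1 kb (10.1 to 112 kb).

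The anchor at 31760042 to 31766255 made the longest repeated contact of the region. It was joined to 32935706 to 32941151 in class II, over 1175 kb and with 2 PETs. It was the only one of the 7 MHC interactions of 1 Mb or more with more than 1 PET. In the whole senescent library 74 of 10132 interactions of that span (0.73%) had at least 2 PETs. The 3 longest in the MHC spanned 1302, 1266 and 1199 kb with 1 PET each. The first and the last ran from the same class III site at 32081073 to 32083871, to 33382095 to 33387317 and to 33280601 to 33282705. The other ran from 30564725 to 30566929 in class I to 31829616 to 31833048 in class III.

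At the upper end of class II the contact with the most PETs of the whole region joined 33382095 to 33387317 with 33392578 to 33397016, 10.1 kb apart, with 7 PETs. The pair stands next to the upper border. The class II anchor with the most partners, at 33284441 to 33292453, had 6 partners and 9 PETs inside the MHC. With partners above the upper border included it had 11 partners, the most of the 79 anchors, and 15 PETs, as many as the anchor at 30709478 to 30713507. It was also the widest of the MHC, at 8013 bp. It was joined to its neighbour at 33280601 to 33282705 with 3 PETs over 6.79 kb. The next were the site at 33215455 to 33218444, with 5 partners and 6 PETs, and that at 33166878 to 33169253, with 4 partners and 6 PETs. The last was joined with 3 PETs to 33172625 to 33175846, 6.17 kb away. No interaction of class II other than these 3 had 3 or more PETs.

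Contacts in the MHC were shorter than in the stretches beside it. The median span was 57 kb (46 to 74.4 kb), against 137 kb (98.4 to 189 kb) in the 3.8 Mb below and 102 kb (77.8 to 125 kb) above, where interactions were also counted with both anchors inside. The intervals of the MHC and the flanks do not overlap, but the limits of 74.4 and 77.8 kb lie close together. Interactions share anchors, so these intervals are too narrow, and whether the MHC and the upper flank differ was not tested. Over all autosomes the median was 97.4 kb. Spans of 20 to 100 kb made up 41.7% of MHC interactions (32.3 to 51.5%) and 31.5% over all autosomes, and spans of 100 to 500 kb made up 22.2% (14.8 to 31.2%) against 32.9%. The autosomal values have no limit on where anchors lie, while the MHC values leave out 24 contacts with 1 anchor outside. Those 24 spanned 69.6 to 1951 kb, and how much of the difference from the autosomes comes from this counting rule was not tested. Weighting by PETs gave a median of 45.7 kb, and interactions with at least 2 PETs had a median of 19.7 kb.

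**Figure D4:**
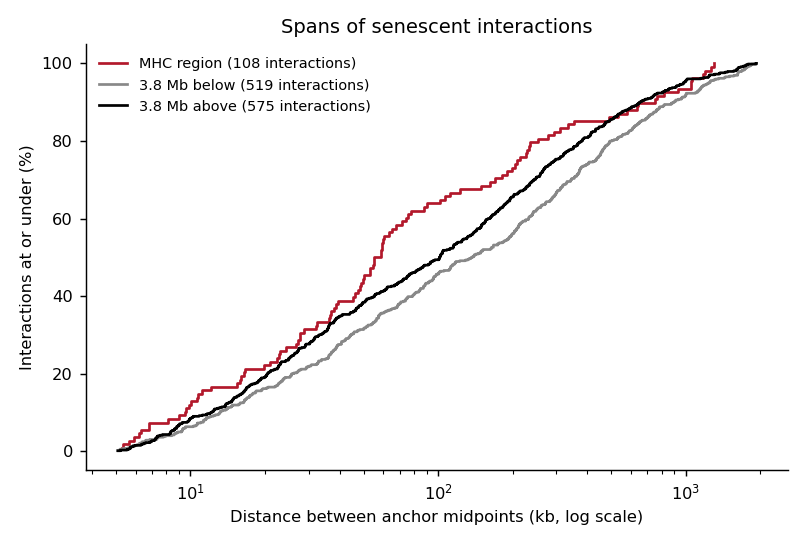
Cumulative share of senescent interactions (vertical axis, percent) by distance between anchor midpoints (kb, log scale) in the MHC and in the 3.8 Mb on either side. The MHC curve reaches 50% at 57 kb, before those of the upper flank (102 kb) and the lower flank (137 kb).

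Most contacts rested on 1 PET. Of the 108, 88 had 1 PET, 11 had 2, 7 had 3, 1 had 4 and 1 had 7. At least 2 PETs were thus seen in 18.5% (11.7 to 27.1%), an interval that holds the 14.4% of all autosomes and the 12.4% of the rest of chromosome 6. Among interactions under 20 kb, 10 of 24 had at least 2 PETs (41.7%, 22.1 to 63.4%), an interval that holds the 37.1% of all autosomes. The deposited significance value was at most 0.05 for 51 interactions (47.2%, 37.5 to 57.1%), against 60.4% of all senescent interactions. Of the 51, 42 had 1 PET and a median span of 244 kb. Of the 20 interactions with at least 2 PETs, 11 were above 0.05. The MHC shares here leave out contacts with 1 anchor outside, a limit that the shares set beside them do not have.

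The anchors were narrow and had few partners. The 79 senescent anchors inside the MHC had a median width of 2626 bp (2491 to 2799 bp), below the 2890 bp of the rest of chromosome 6 (2856 to 2931 bp), and none was wider than 10 kb. They had a mean of 3.04 partners, counting those outside the region, against 3.85 in the rest of chromosome 6. No interval was calculated for these means. At most they had 11, against 31 among the 3932 anchors of the rest of chromosome 6, and a maximum tends to rise with the number of anchors. An anchor with a single partner made up 24.1% (15.1 to 35%) and 20.5%, a difference not detectable with 79 anchors. Since no control anchor lay within 0.921 Mb of them, none of the 79 could overlap one.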

How the data were processed

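The deposited tables list METTL3 HiChIP interactions of 1 control and 1 senescent library. The submitters' processing notes name hg19 and HiC-Pro 3.1.0. The sources used here do not give the interaction caller, duplicate removal or alignment settings. The whole number that the authors deposited per interaction was read as its count of PETs. The last deposited column was read as a p-value or q-value; which is not stated. Starts were taken to count from 0 and are printed 1-based. Only joined anchors are listed, so table totals are not sequencing depths.

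Calculations used Python (3.11.15) with scipy (1.17.1), numpy (2.4.6) and pandas (2.3.3), and figures matplotlib (3.10.9). Shares have exact Clopper-Pearson intervals, ratios exact conditional binomial ones and medians order-statistic ones, at the 95% level; they cover only counting error. Where the control count was 0, a fold is a lower bound against a floor of 3 counts over the library. Interval functions were tested on simulated data. With 1 library per group no test between conditions was possible. Windows of 200 kb and tiles of 3.8 Mb were filled by contact midpoint. RefSeq (GRCh38.p14) served only for names and gene order. Interactions named by rule are the 10 with the most PETs, ties by the deposited value, and the 3 longest; anchors named by rule are the 3 in each class with the most partners inside the region; other interactions and anchors, flanks, tiles, gaps and the densest stretch were singled out after their values were seen. The region and lists were chosen with earlier results of these data known.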

Additional observations from a re-analysis of the deposited data

How the results depend on the processing

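Of 34 alternatives, 11 moved a value and 0 reversed it. No reversal was possible for the fold, whose control count was 0, and the shares, medians and rankings have no sign to reverse. The other 23 were counted as unchanged, with a value within its counting interval or a count within range. Of these, 5 could not change it, since no control anchor was in reach and no MHC anchor was over 10 kb, which leaves 18. Among the 18, other window sizes could change only how many windows held senescent PETs, since the control count was 0. The lower bound of 3.69 for the senescent over the control share became 6.77 when scaled to the PETs of chromosome 6. Without scaling the value was 47.3, a ratio of counts and not of shares, and the senescent library lists 12.8 times as many PETs. The bound on the shares became 2.93 for interactions, 1.23 with at least 2 PETs and 1.61 with a deposited value of at most 0.05. It was 4.43 without anchors over 10 kb and 3.04 with the upper border 200 kb lower. The control count was 0 in each. That last border was chosen after seeing the data and lowered the class II share from 20% to 8.43%. The median span of 57 kb became 45.7 kb weighted by PETs, 19.7 kb with at least 2 PETs and 76.7 kb without spans under 20 kb. Ranking anchors by PETs instead of partners kept 6 of the 9 anchors named. It was counted among the 23, though a ranking has no counting interval and the other anchors named did change. No paired analysis was possible because each group is 1 library. For the same reason no library could be left out. PET counts of 1 to 7 per interaction limit what a single contact can show.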

Other observations

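The senescent contacts that left the MHC went almost all upward. Of 24 senescent interactions with 1 anchor inside and 1 outside, with 25 PETs, 23 reached partners above the upper border and 1 reached below the lower border. Of the 24, 21 started from anchors at or above 33166878, near the top of class II. The borders are unlike: the lowest senescent anchor of the MHC began at 30293375, after 1340 kb without one, while the highest ended at 33397016, next to the upper border. Whether the direction depends on where the borders were set was not tested. The anchor at 33284441 to 33292453 was joined to 33734672 to 33744744 with 2 PETs, over 451 kb, and the other 23 contacts had 1 PET each.

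The stretch of 6.5 Mb without control anchors that holds the MHC was not the longest in the control library: 30 autosomal stretches were longer. Inside it the senescent library listed 374 PETs, of which 142 had both anchors in the MHC. None of those 30 held as many as 374, the most being 370. Shorter stretches were not compared, and the fullest 3.8 Mb tile without control PETs held 1593 senescent PETs. Both the stretch and the comparison with longer stretches were chosen after the data were seen.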
